A study of Mus musculus with 2 samples.

Results

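The genes described here are 10 scavenger receptors of the mouse, *Olr1*, *Msr1*, *Cd36*, *Scarb1*, *Scarb2*, *Marco*, *Cd68*, *Cd163*, *Stab1* and *Scarf1*. All but *Cd68*, 9 genes, were among the 20655 genes that could be named on the array. The 10 genes were taken by name, and every named probe of each was read. The group was chosen by its readout as well as by its name, since the signals of these 2 arrays, with the low *Olr1* signal among them, were known when it was put together. Its values are therefore a description and carry no test. Scavenger receptors were measured in RAW264.7 cells, an established macrophage-like line from an adult male BALB/c mouse, raised from a tumor induced by Abelson murine leukemia virus. One culture received vehicle control and 1 culture received IR-61, a near-infrared cyanine dye that gathers in mitochondria, each for 24 h in DMEM with heat-inactivated serum and with no other stimulus named. The labels give no dose, and the legend in the study gives 10 μM. Each RNA went onto a separate single-colour Agilent array. With 1 array per condition there was no replicate culture, so no p-value is given and every difference is one between these 2 cultures.

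Scavenger receptors are surface and endosomal proteins that bind modified lipoproteins, microbes, dying cells and other polyanionic ligands and carry them into the cell. In macrophages they are best known for the uptake of oxidized or acetylated low-density lipoprotein, which can fill the cell with lipid. They share this way of binding rather than a common ancestry. The class A receptors have collagen-like stalks, the class B receptors pass through the membrane at both ends, and *Olr1* encodes LOX-1, a C-type lectin-like receptor for oxidized low-density lipoprotein that is known to be induced by inflammatory stimuli.

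Of the 10 genes, 9 were read by a named probe, and in all 9 the signal was well above background on both arrays. *Olr1* was 9.18-fold lower with IR-61. The remaining 8 genes differed by less than 1.5-fold in either direction, from −0.47 for *Scarb2* to 0.42 for *Scarf1* on the log2 scale. No probe was named for *Cd68*, and it is not analysed here. Throughout, a scaled signal is the log2 signal minus the 75th percentile of its array, a difference is IR-61 minus vehicle in scaled signals, and 2-fold equals 1 on that scale.

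The promoter of *Olr1* is shown because this gene alone among the 9 passed 2-fold, that of *Scarb2* because it had the next lowest difference, and those of *Cd36* and *Marco* as promoters of lipoprotein and microbe receptors whose differences were smaller. Each runs from 250 bases before to 50 bases after the start that RefSeq gives, from the C57BL/6J reference. Capitals mark matches to the AP-1 motif TGAGTCA, to the antioxidant response element TGACNNNGC, to the TATA box TATAAA and to the NF-κB consensus, each searched on both strands.
Olr1 promoter, GRCm38.p6 chr6:129507116-129507415, minus strand: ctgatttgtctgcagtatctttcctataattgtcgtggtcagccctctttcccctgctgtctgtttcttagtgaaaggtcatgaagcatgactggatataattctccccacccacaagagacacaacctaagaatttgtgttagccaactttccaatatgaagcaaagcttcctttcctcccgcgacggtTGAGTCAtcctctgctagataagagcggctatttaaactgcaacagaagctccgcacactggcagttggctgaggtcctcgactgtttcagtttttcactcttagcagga
Scarb2 promoter, GRCm38.p6 chr5:92505608-92505907, minus strand: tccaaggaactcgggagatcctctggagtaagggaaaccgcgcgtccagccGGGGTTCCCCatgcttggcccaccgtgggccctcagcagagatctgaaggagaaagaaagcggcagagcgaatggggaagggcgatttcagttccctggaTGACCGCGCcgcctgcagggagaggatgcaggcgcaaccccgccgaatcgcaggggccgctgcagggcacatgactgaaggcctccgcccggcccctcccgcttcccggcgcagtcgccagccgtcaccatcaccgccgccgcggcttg
Cd36 promoter, GRCm38.p6 chr5:17835847-17836146, minus strand: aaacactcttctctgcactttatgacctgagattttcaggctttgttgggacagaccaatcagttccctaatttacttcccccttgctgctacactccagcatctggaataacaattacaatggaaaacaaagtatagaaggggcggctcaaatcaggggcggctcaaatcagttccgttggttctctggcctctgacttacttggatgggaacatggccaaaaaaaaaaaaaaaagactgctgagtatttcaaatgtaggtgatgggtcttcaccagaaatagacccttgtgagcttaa
Marco promoter, GRCm38.p6 chr1:120504975-120505274, minus strand: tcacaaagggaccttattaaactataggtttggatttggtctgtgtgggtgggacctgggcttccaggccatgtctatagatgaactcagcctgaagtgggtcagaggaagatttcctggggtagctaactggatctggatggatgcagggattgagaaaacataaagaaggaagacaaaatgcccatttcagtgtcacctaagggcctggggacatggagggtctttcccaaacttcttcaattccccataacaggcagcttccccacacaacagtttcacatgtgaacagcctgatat

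The *Olr1* window held 1 AP-1 match, from −60 to −54 relative to the start. The window of *Scarb2* held an antioxidant response element match from −99 to −91 and an NF-κB consensus match from −199 to −190, and those of *Cd36* and *Marco* held no match to these 4 motifs. Of the 7 receptor genes with a promoter in the table, *Olr1* and *Cd68*, the latter with 2 matches, held TGAGTCA, which was found in 5.20% of all 32851 promoters of this length. The antioxidant response element was found in 12.4% of all promoters, the TATA box letters in 13.6% and the NF-κB consensus in 8.46%. Among the same 7 genes, 4 held the PU.1 core GAGGAA, against 28.3% of all promoters, and 3 held the GC box GGGCGG, against 35.7%. The TGAGTCA match of *Olr1* overlapped no other motif searched. The motifs were chosen after the differences were known, and a match describes letters in this window and says nothing of a factor bound there.

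*Olr1* was read by 1 probe, printed once on each array. Its signal was 3575 with vehicle and 547 with IR-61, on arrays where the lowest signals called well above background were 12.8 and 15.0. The scanner's uncorrected median brightness of the spot was 3633 with vehicle and 600 with IR-61, over local backgrounds of 19.5 and 20.0. The fall was therefore already present before any background subtraction or scaling, and both readings stood far above the dim end of the arrays. The scaled signal went from 1.501 to −1.70, a difference of −3.20. Without scaling between the arrays the signal with IR-61 was 0.153 of that with vehicle, a difference of −2.71.

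Without replicate cultures, error could be estimated only from how far the spots of 1 probe spread on 1 array, in the probes printed 10 times. At the brightness of *Olr1* it gave an SD of 0.162 for the difference, and the error model of the scanner software gave 0.204. Measured from the median of all genes, the difference of *Olr1* was −3.30, which is 20.4 times the first and smaller of these errors. The low signal of *Olr1* was known when the group was put together, so this multiple is a description and no test. Neither error covers the variation between cultures. The 157 detected probes printed within 10 rows and 5 columns of the *Olr1* spot had a median difference of 0.15, so the surrounding area of the array was not lower with IR-61.

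**Figure D1:**
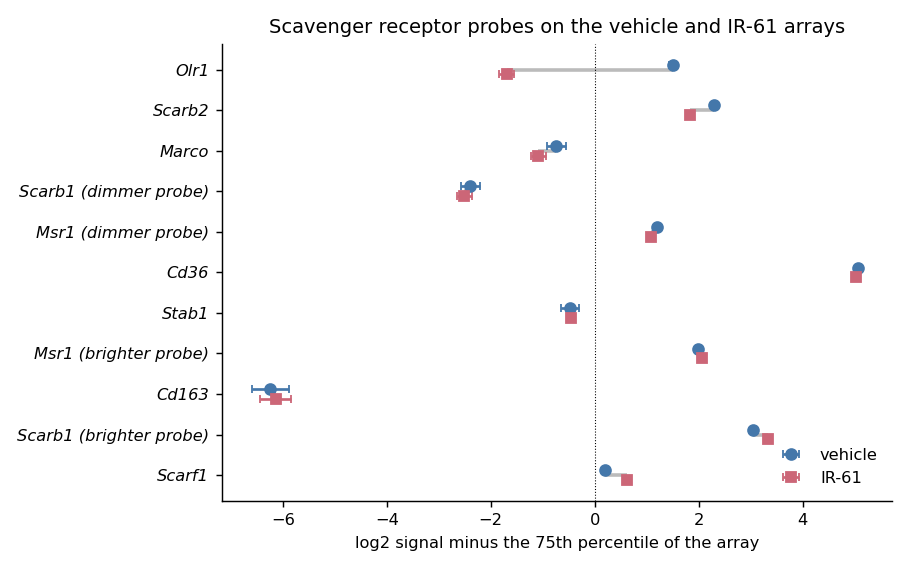
Scaled log2 signal (horizontal axis) of each scavenger receptor probe with vehicle (circles) and with IR-61 (squares), 1 array each. Bars are the SD expected between spots at that brightness and are hidden by the marker where small, and grey lines join the 2 arrays. *Olr1* falls from 1.501 to −1.70, and the marker pairs of the other 10 probes lie close together.

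Over the whole array, 16885 genes were measured on both arrays, with a median difference of 0.10 and an SD across genes of 0.44. Of these, 1.39% were lower by 2-fold or more and 1.99% were higher by 2-fold or more. Among the 9 scavenger receptors 1 was lower and 0 were higher by that limit. Because the genes were chosen with these signals known, nothing is read from these shares. The median difference of the 9 genes was 0.02, and it was 0.04 without *Olr1*. Past 1.5-fold in either direction lay 1 of the 9 genes and 15.5% of all measured genes.

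Ordered from the largest fall, *Olr1* took rank 5 of the 16885 genes. The next receptor, *Scarb2*, took rank 1434, and the gap between them was 2.73 on the log2 scale. The 3 genes with a difference nearest to that of *Olr1* were *Tnf* (−3.24), *Cxcl2* (−3.13) and *Pde4b* (−3.07). *Tnf* and *Cxcl2* encode an inflammatory cytokine and a neutrophil-attracting chemokine, and *Pde4b* a phosphodiesterase that breaks down cyclic AMP. This likeness rests on the difference between the same 2 arrays and is a description.

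**Figure D2:**
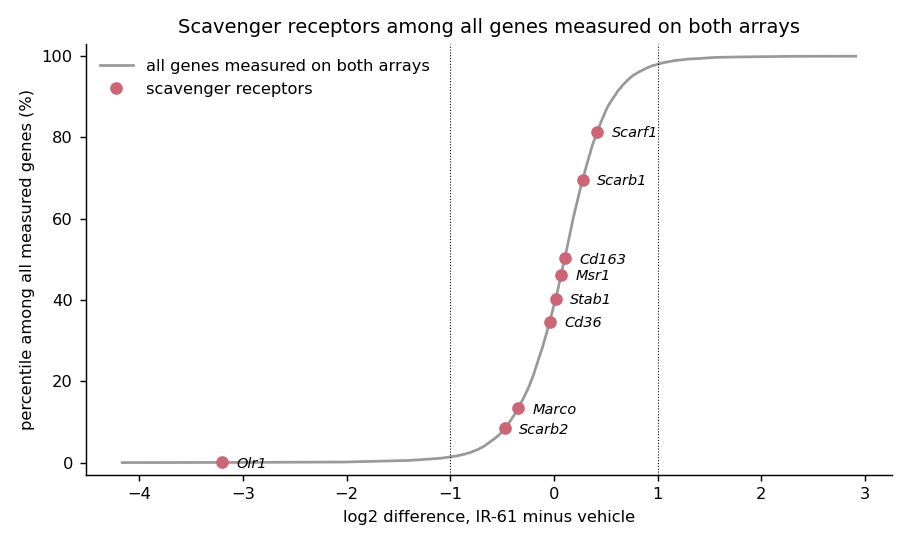
Percentile of each gene (vertical axis) against its log2 difference, IR-61 minus vehicle (horizontal axis), for all 16885 genes measured on both arrays (grey line) and for the 9 scavenger receptors (points). Dotted lines mark 2-fold. *Olr1* sits alone at −3.20, while the other 8 receptors lie on the steep middle part of the curve between the percentiles 8.49 and 81.5.

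The class A receptors bind acetylated lipoprotein and bacterial surfaces. *Msr1*, which encodes SR-A, was read by 2 probes. The brighter had a signal of 5040 with vehicle and 7420 with IR-61, and its scaled difference was 0.07. The dimmer had signals of 2911 and 3776, and its difference was −0.11. The probes thus lay on either side of 0, 0.18 apart with an SD from spots of 0.134, and no direction can be given for *Msr1*. *Marco*, the receptor known from lung and marginal zone macrophages, had signals of 757 and 835 and a difference of −0.35, where the SD from spots was 0.230. *Marco* was lower in scaled signal and higher, by 0.14, without scaling.

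The class B receptors were the largest set among the 10. *Cd36*, which takes up oxidized lipoprotein and long-chain fatty acids, had a signal of 42449 with vehicle and 57873 with IR-61. The scaled difference was −0.04, with an SD from spots of 0.095. *Cd36* was therefore level within the error between spots, in the same cells in which the lectin-like receptor for oxidized lipoprotein fell. *Scarb1* encodes SR-BI, the receptor for high-density lipoprotein, and had 2 probes. The brighter read 10450 and 17771, a difference of 0.28, and the dimmer 240 and 311, a difference of −0.11. The gap between them was 0.39, and the SD from spots for this gap was 0.249. The higher value of *Scarb1* thus rests on the brighter probe.

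*Scarb2* encodes LIMP-2, a lysosomal membrane protein that carries glucocerebrosidase to lysosomes. Its signals of 6228 and 6296 were nearly equal before scaling. After scaling, relative to the brighter IR-61 array, the difference was −0.47 with an SD from spots of 0.095. The error model of the scanner software gave a larger error of 0.204. Measured from the median of all genes the difference was −0.57, the second largest shift among the 9 genes. The difference stayed between −0.59 and −0.40 relative to that median under the 12 settings for which that median was computed. For *Marco* this range was −0.45 to −0.33. Scaling by a constant moves a gene and the median alike, so such settings could not change these values. Each of these genes had 1 probe, so the rules for several probes and dim probes moved only the median. The ranges are thus in part fixed in advance.

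The remaining receptors belong to other classes. *Scarf1*, which encodes SREC-I, a receptor for acetylated lipoprotein and dying cells with repeats like those of epidermal growth factor, had signals of 1453 and 2724. Its difference of 0.42 was the highest of the 9 genes, with an SD from spots of 0.095 and an error of 0.204 from the scanner software. Relative to the median of all genes the difference stayed between 0.32 and 0.43. The limits given for this range in *Scarb2* hold here too. *Stab1* encodes stabilin-1, which clears acetylated lipoprotein and matrix fragments in tissue macrophages. Its signals were 910 and 1290 and its difference was 0.02, within the SD from spots of 0.189. *Cd163*, the macrophage receptor for haemoglobin bound to haptoglobin, had signals of only 16.7 and 25.2, close to the lowest signals called well above background. Its difference of 0.10 was smaller than the SD from spots of 0.462. No direction can be given for *Cd163*, and a small change could not have been seen at this signal.

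The deposited table of log2 values, made by the authors between the same arrays, gave −3.21 for *Olr1*, −0.55 for *Scarb2*, −0.30 for *Marco* and 0.41 for *Scarf1*. It gave 0.20 for the brighter probe of *Scarb1*, and −0.12 for *Cd163*. The signs of *Cd36*, *Msr1*, *Stab1* and *Cd163*, the 4 genes with differences nearest to 0, changed between settings. Those of *Scarb2*, *Marco* and *Scarb1* also changed, in 1 of 13 settings each. Without scaling, all 8 genes other than *Olr1* were higher with IR-61, because the IR-61 array was brighter as a whole and the median of all genes was then 0.59.

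**Figure D3:**
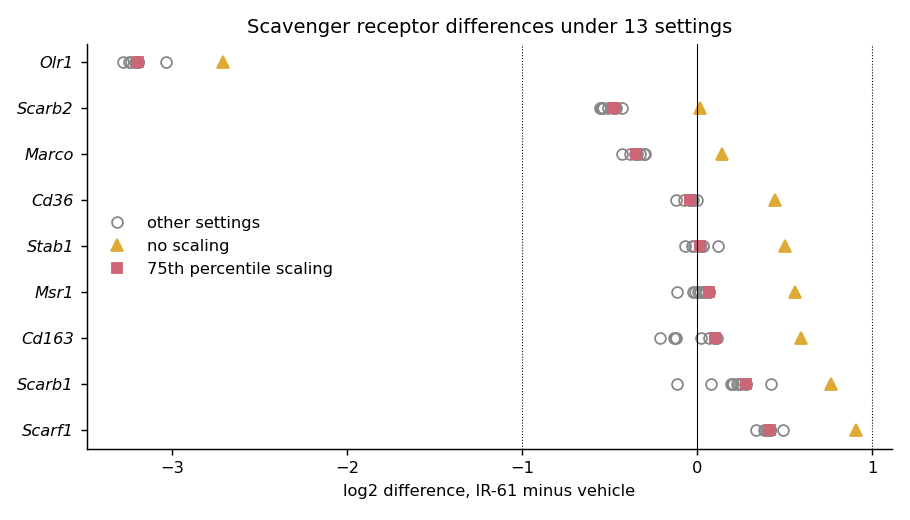
Log2 difference, IR-61 minus vehicle (horizontal axis), of the 9 scavenger receptors under 13 settings: scaling by the 75th percentile (squares), no scaling (triangles) and the other 11 settings (open circles). Dotted lines mark 2-fold. *Olr1* stays between −3.28 and −2.71, and no other receptor reaches 2-fold under any of these settings.

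Related genes were read from lists made for the surroundings of these receptors, again with earlier results known. Of 18 other scavenger receptors 14 were measured on both arrays, with a median difference of 0.14, and 0 of them passed 2-fold. The lowest difference was that of *Cxcl16* at −0.77, a membrane-bound chemokine that also binds oxidized lipoprotein, with signals of 11210 and 9205. The highest was that of *Cd5l* at 0.72, a secreted scavenger protein of macrophages, with signals of 3871 and 8928. *Mrc1*, the mannose receptor, had a difference of −0.02. *Megf10*, *Havcr1* and *5830411N06Rik* were well above background with IR-61 alone, and *Megf10*, a receptor for dying cells, was at least 4.17-fold higher, with signals of 10.2 and 74.9. *Havcr1* and *5830411N06Rik* had signals of only 26.5 and 23.5 with IR-61, where the lowest detected signal was 15.0. Over all 20655 named genes, 740 gave such a bound for a rise and 145 a bound for a fall. Nothing is therefore read from the number of receptors detected with IR-61 alone.

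Genes of lipid storage and efflux, the pathway that follows lipoprotein uptake, had a median difference of −0.14 over 12 genes, and 0 passed 2-fold. *Abca1*, the cholesterol exporter, was lowest at −0.79, and *Lpl*, lipoprotein lipase, was highest at 0.69. *Plin2*, which coats lipid droplets, was at −0.33. Among the 9 transcription factors read here that are known to act on scavenger receptor genes, all measured on both arrays, *Maf* was 1.97-fold higher, close to the limit, with a range of 0.90 to 1.47 over 12 settings. *Spi1*, which encodes PU.1, was lowest at −0.83, and *Pparg*, known as an activator of *Cd36*, was at 0.67.

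Partners and kinases of CD36 had a median of −0.22 over 12 genes. *Itgb2*, the β chain of the leukocyte integrins, was 2.45-fold lower, with a range of −1.37 to −0.80 over 12 settings, and no other gene of that list passed 2-fold. *Cd81* was highest at 0.30. Genes for the uptake of dying cells had a median of −0.06 over 13 genes, between −0.65 for *Thbs1* and 0.66 for *Dock1*, and 0 passed 2-fold. The receptor-shedding list of 4 genes ran from −0.67 for *Rhbdf2* to 0.51 for *Adam10*, the latter a protease that cuts surface proteins. In the haemoglobin list of 5 genes, *Hpx*, the haem carrier hemopexin, was 2.26-fold higher, with a range of 0.85 to 1.66 over 12 settings, and *Hmox1*, the haem-degrading enzyme, was lowest at −0.13.

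**Figure D4:**
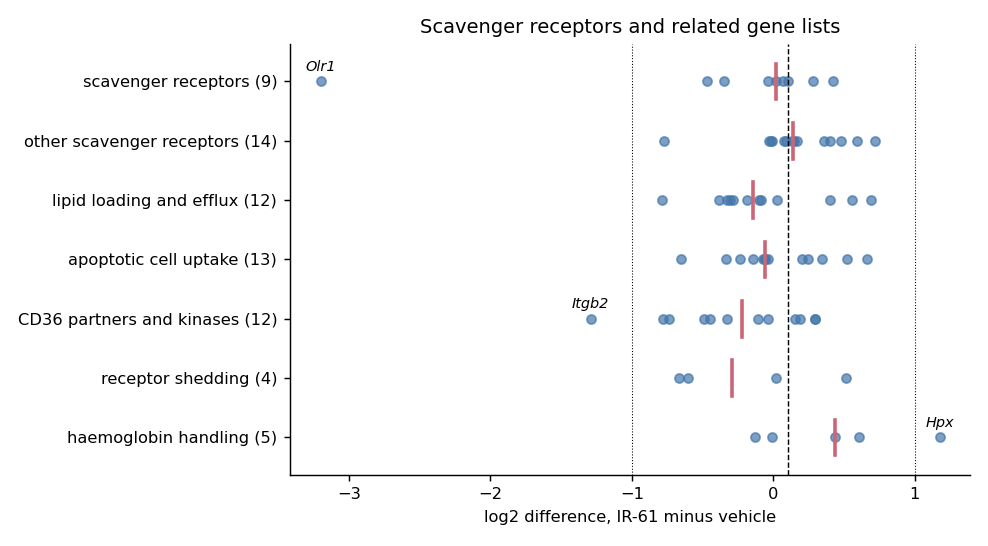
Log2 difference, IR-61 minus vehicle (horizontal axis), of every gene measured on both arrays in the scavenger receptor list and in 6 related lists, with the number of genes in brackets. Each point is a gene, the upright bars are list medians, the dashed line is the median of all genes at 0.10 and dotted lines mark 2-fold. *Olr1*, *Itgb2* and *Hpx* are the genes past 2-fold.

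*Olr1* lies among genes for C-type lectin-like receptors on chromosome 6. Of the 4 protein-coding genes on either side, looked up after the values were known, 4 were measured on both arrays. *Clec1b*, a receptor also expressed by platelets, was at 0.92 with signals of 1761 and 4673, *Clec1a* at 0.62, *Gabarapl1*, an autophagy gene, at 0.17 and *Klre1* at −0.19. *Clec9a*, well above background with IR-61 alone, was at least 2.53-fold higher. None of these measured neighbours was lower by 2-fold. *Clec7a*, next to *Olr1*, had no named probe, and *Tmem52b* and *Klrd1* were at background level on both arrays. A fall in those genes could not have been seen.

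The macrophage markers were clearly measured, with 7 of 8 read by a named probe and signals between 2273 and 101199 on the vehicle array. *Adgre1*, the gene of the F4/80 antigen, was 2.04-fold higher with IR-61 and *Aif1* 2.12-fold higher. *Adgre1* lay between 0.85 and 1.51 over 12 settings. Of the 7 genes 5 were above 0, among them *Csf1r* at 0.06. The median of all measured genes was itself above 0, at 0.10, so nothing is read from this count. *Mpeg1* was lowest at −0.34. Markers of other cell types were also detected. Of 4 T cell markers 3 were read on both arrays, *Cd4* with signals of 1354 and 2003 and *Cd3e* with 684 and 957, and *Cd3g* was at background level on both. Of 3 epithelial markers *Krt18*, with signals of 218 and 214, and *Krt8*, with 26.0 and 27.4, were read on both arrays, and *Epcam* was at background level. The 4 fibroblast markers were detected, with a median difference of 0.21, from −0.09 for *Dcn* to 0.62 for *Col1a1*, whose signals were 27147 and 58670. The 4 endothelial markers were detected too, with differences from −0.13 for *Kdr* to 0.26 for *Pecam1*. Of the B cell markers read here *Ms4a1* was 2.75-fold lower, with signals of 353 and 180, while *Cd79a* was at 0.14. *Ms4a1* lay between −1.54 and −0.97 over 12 settings, and without scaling it did not pass 2-fold. Of 3 hepatocyte markers *Alb* was read, at 18.2 and 32.5, and the others were at background level. The part of these genes in the result for *Olr1* was not tested, and in a bulk RNA sample fewer expressing cells and less RNA per cell cannot be told apart.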

How the data were processed

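The scavenger receptors and the related lists were chosen with earlier results of these data known. The authors deposited spot intensities that the Agilent Feature Extraction software had background-subtracted and detrended within each array, with flags for outlier, saturated and detected spots. The file headers name version 11.0.1.1 and the submitters' processing notes 11.0.0.1. The methods text of the study names an earlier version than either. The log2 values per probe that the authors deposited share their quartiles, at 4.59 and 10.7, and how they were made is not given in the sources used here.

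Control and outlier spots were left out, 124 of the latter with vehicle and 139 with IR-61. Log2 intensities were averaged per probe and lowered by the 75th percentile of the array (vehicle 10.3, IR-61 10.8). Detected probes made up 77.6% of 39419 on the vehicle array and 81.2% on the other, and 0 spots were saturated. RefSeq accessions were matched to a gene table of GRCm38.p6, which named 27224 probes, and the brightest probe stood for a gene. A side at background took its own signal or the lowest detected signal, whichever was higher, and gave a bound. Named genes are the 10 receptors, the extremes of each list and the 3 genes nearest to *Olr1*, and any others were chosen after their values were seen. Promoters from RefSeq matched 7 of the 10 genes. A gene of the transcription factor list and another of the B cell list are not reported here, and no median is given for those lists.

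No test was run, and the number of arrays limits the precision. The steps were checked on simulated arrays. The alternatives were other scalings, normexp, the deposited values, other rules for outlier spots, several probes and dim probes, and other fold limits. Python 3.11.15, numpy 2.4.6, pandas 2.3.3, matplotlib 3.10.9, R 4.3.3 and limma 3.58.1 were used.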

Additional observations from a re-analysis of the deposited data

How the results depend on the processing

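No paired analysis was possible because only 1 culture per condition was measured. The difference of *Olr1* was between −3.28 and −2.71 under the 13 settings tried, and 1 receptor was lower and 0 were higher by 2-fold or more in each. *Olr1* had 1 probe, well above background on both arrays, so the rules for several probes and for dim probes could not change its value. With limits of 1.5-fold and 3-fold, tried under the reported scaling alone, the counts were the same. The value furthest from the reported one was −2.71 for *Olr1* without scaling, a setting that also moved the median of the 9 receptors from 0.02 to 0.50 and the median of all measured genes to 0.59. With the dimmest detected probe of each gene the median of the receptors was −0.11. The median of the CD36 partners and kinases moved from −0.22 to −0.39 with that rule, and also with the mean over detected probes. *Scarf1* was above 0 in 13 of 13 settings, and *Scarb2* and *Marco* were below 0 in 12 of 13, with 0.02 and 0.14 without scaling. Each of these genes also had 1 probe, so the rules for several probes and for dim probes could not change its value. *Scarb1* was above 0 in 12 of 13, and at −0.11 with its dimmer probe. Normexp used the median signal of each spot with an offset of 50, and 4 spots of the IR-61 array with a local background above their own signal took the median background. That step, the removal of the median of nearby spots, with *Olr1* then at −3.25, and the median without *Olr1* were chosen after seeing the data. Without scaling the medians of 6 related lists lay between 0.19 and 0.92, all above 0, *Itgb2* no longer passed 2-fold at −0.80, and 9 genes of these lists were higher by 2-fold or more in place of 1. The signal over background limits *Cd163* above all.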
